A study of Mus musculus with 8 samples.

Results

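Keratins of the mammary epithelium were examined in the 4T1 line, as a list of 10 genes. It holds the luminal and simple-epithelial keratins Krt7, Krt8, Krt18, Krt19 and Krt20. The others are the type II epithelial keratin Krt80 and the basal keratins Krt5, Krt14, Krt15 and Krt17. The genes were matched by symbol to the Ensembl identifiers of the count table, and all 10 were found among the 16341 genes counted. RNA-Seq had been done on 4T1-Sca1+ and 4T1-Sca1- cells, 4 libraries each. 4T1 is a mouse mammary carcinoma line, and SCA1 is the surface marker that Ly6a encodes. Cells were stained for SCA1 and separated on magnetic columns, with a CD45-negative gate in the labels for either fraction. No other treatment or genotype distinguished the groups. The labels give parental 4T1 cells as the source in one field and stained 4T1 tumor in another, and they do not say whether replicates were separate sorts, so the p-values measure the spread between these libraries, which may be technical.

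Keratins are the intermediate filament proteins of epithelial cells. An acidic type I chain pairs with a basic type II chain, and neither forms a filament alone. In the mammary gland, KRT8 with KRT18 and KRT19 marks the luminal layer that lines the ducts. KRT5 with KRT14, together with KRT17 and KRT15, marks the basal layer around the luminal layer, which includes the myoepithelial cells of the basal position. The type I genes are clustered on mouse chromosome 11 and the type II genes on distal chromosome 15, but Krt18, a type I gene, lies at the end of the type II cluster next to Krt8.

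Ly6a followed the labels, with 145 to 193 normalized counts in 4T1-Sca1+ cells against 0 to 4.11 in 4T1-Sca1- cells. Normalized counts are read counts divided by the size factor of the library. The libraries held between 13561804 and 16968215 counts. The epithelial marker Epcam was present in all 8 libraries at 3039 to 3252 normalized counts, and the pan-leukocyte gene Ptprc had at most 4 counts in any library. Genes were tested with edgeR's quasi-likelihood test, and a gene is called here at an adjusted p under 0.05, adjusted over all 11717 genes tested.

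Of the 10 keratins, 7 had enough counts to be tested. Krt8 and Krt18 were higher and Krt7, Krt14 and Krt80 were lower in 4T1-Sca1+ cells, whereas Krt19 and Krt17 were not called. Each difference was small, at most 1.3-fold in either direction. These counts stand against a background in which 61.5% of all tested genes were called, 31.3% as higher and 30.2% as lower, so the 2 higher and 3 lower of 7 members tested are near the background share and no result about the list. In 5 of the 7 the groups were apart without overlap, as they were in 54.7% of all genes tested. Krt5, Krt15 and Krt20 had at most 6 counts in any library and were not tested.

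**Figure D1:**
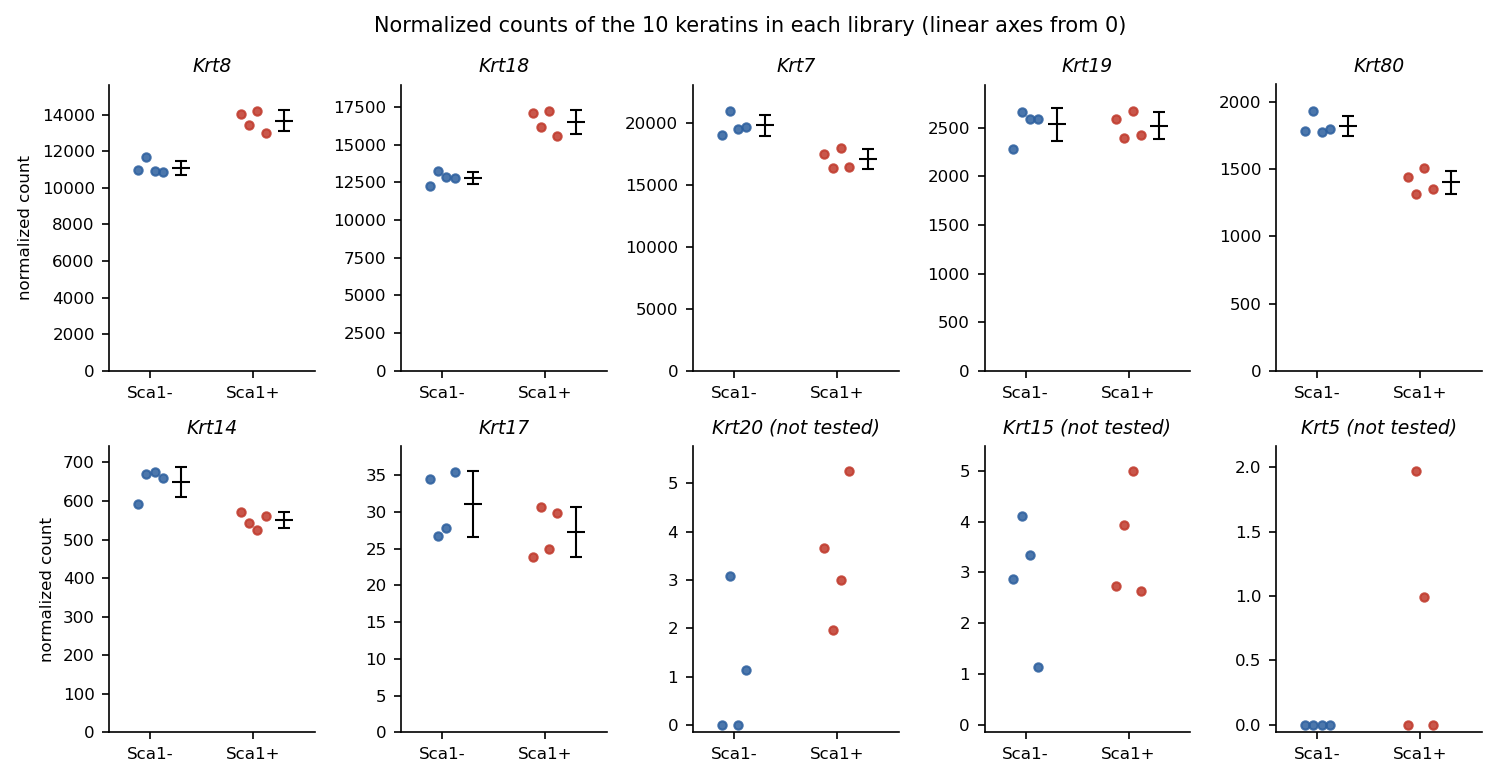
Normalized counts (linear axes) of each of the 10 keratins in the 4 4T1-Sca1- libraries (blue) and the 4 4T1-Sca1+ libraries (red), with mean and SD beside the tested genes. Krt8 and Krt18 lie higher in every 4T1-Sca1+ library, Krt7, Krt80 and Krt14 lie lower in every 4T1-Sca1+ library, and Krt5, Krt15 and Krt20 stay at 5.25 normalized counts or less.

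The promoters of Krt8 and Krt18, which were higher together, and of Krt7, which was lower in the same gene cluster, are shown so that the sequences at their starts can be compared. Each runs from 250 bases before to 50 bases after the start of the gene in RefSeq (build GRCm38.p6), 5′ to 3′ on the strand of the gene. The table used held a promoter for 6 of the 10 keratins (Krt5, Krt7, Krt8, Krt14, Krt18 and Krt20). Capitals mark matches, on either strand, to the motifs searched, which were the GC box GGGCGG, the AP-1 site TGANTCA, the STAT site TTCNNNGAA, the TATA box TATAAA and the Grainyhead site AACNGGTT.
Krt8 promoter, chr15:102004293-102004592, minus strand: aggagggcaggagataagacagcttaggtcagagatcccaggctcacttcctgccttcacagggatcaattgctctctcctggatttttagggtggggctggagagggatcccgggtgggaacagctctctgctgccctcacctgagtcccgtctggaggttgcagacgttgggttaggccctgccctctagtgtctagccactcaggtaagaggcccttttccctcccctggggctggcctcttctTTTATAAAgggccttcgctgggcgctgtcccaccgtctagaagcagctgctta
Krt18 promoter, chr15:102027966-102028265, plus strand: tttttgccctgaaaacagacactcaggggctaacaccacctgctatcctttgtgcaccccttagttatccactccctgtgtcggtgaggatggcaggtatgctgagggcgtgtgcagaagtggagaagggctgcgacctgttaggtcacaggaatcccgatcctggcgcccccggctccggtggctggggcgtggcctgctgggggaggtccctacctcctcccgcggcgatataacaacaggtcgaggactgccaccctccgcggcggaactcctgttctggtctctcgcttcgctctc
Krt7 promoter, chr15:101412153-101412452, plus strand: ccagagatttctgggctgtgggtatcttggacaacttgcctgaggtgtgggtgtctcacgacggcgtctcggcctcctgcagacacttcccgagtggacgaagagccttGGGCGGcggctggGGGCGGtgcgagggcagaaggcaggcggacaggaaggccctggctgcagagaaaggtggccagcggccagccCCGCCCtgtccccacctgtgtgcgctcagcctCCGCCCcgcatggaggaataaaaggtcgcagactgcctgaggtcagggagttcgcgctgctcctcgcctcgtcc
The Krt7 promoter held 4 GC boxes, a motif found in 35.7% of the 32851 promoters of the same length. The Krt8 promoter held 2 overlapping TATA box matches on opposite strands beside the start, a motif found in 13.6% of promoters. The Krt18 promoter held none of the motifs, and of the others the Krt20 promoter alone held a match, 1 TATA box. AP-1, STAT and Grainyhead motifs, found in 7.81%, 8.3% and 2.09% of all promoters, had no match in the 6. The RefSeq starts of Krt7, Krt8, Krt18 and Krt14 lie inside the GENCODE bounds of their genes. GC content was 66.3% for Krt7, 61.3% for Krt18 and 58.0% for Krt8. A match describes the letters of this window and is not a measured site.

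Krt8, the type II chain of the luminal filament, was measured at 14048, 13447, 14218 and 12980 normalized counts in 4T1-Sca1+ cells and at 10951, 11677, 10903 and 10841 in 4T1-Sca1- cells. Every 4T1-Sca1+ library was above every 4T1-Sca1- library. The gene (ENSMUSG00000049382, chr15:101996698-102004482, minus strand, GRCm38) was higher by 0.31 ± 0.04 on the log2 scale (standard error), or 1.24-fold, at an adjusted p of 6.4e-06 by edgeR.

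Krt18, its type I partner, was measured at 17072, 16169, 17259 and 15555 normalized counts in the 4T1-Sca1+ libraries against 12288, 13274, 12844 and 12801. Here too the groups did not overlap. The gene (ENSMUSG00000023043, chr15:102028180-102032027, plus strand) was higher by 0.38 ± 0.04 on the log2 scale, or 1.3-fold, at an adjusted p of 8.61e-07 by edgeR. Correcting the counts for the GC content of the transcripts left both genes called but reduced the log2 fold changes to 0.15 for Krt8 and 0.23 for Krt18. Krt8 overlaps a gene model on the opposite strand, Gm36026, and since the library kit does not mark strand, reads of overlapping genes cannot be told apart. Libraries were made from bulk RNA, in which fewer cells of a type and less RNA per cell cannot be told apart.

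Krt7, a type II keratin of simple and ductal epithelia, went the other way. It was measured at 17502, 16404, 18055 and 16453 normalized counts in 4T1-Sca1+ cells and at 19103, 21043, 19543 and 19693 in 4T1-Sca1- cells, again without overlap. The gene (ENSMUSG00000023039, chr15:101411043-101430313, plus strand) changed by -0.20 ± 0.04 on the log2 scale at an adjusted p of 0.000785 by edgeR. It overlaps Gm671 on the opposite strand.

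Krt80, a type II epithelial keratin whose gene lies 40.88 kb from Krt7, showed the largest decrease among the 10. It had 1436, 1311, 1503 and 1347 normalized counts in the 4T1-Sca1+ libraries against 1783, 1933, 1774 and 1793. The lowest 4T1-Sca1- library was above the highest 4T1-Sca1+ library. Its log2 fold change (ENSMUSG00000037185, chr15:101347444-101370162, minus strand) was -0.37 ± 0.05 at an adjusted p of 8.15e-06 by edgeR. Krt80 overlaps Gm35853 and Mir1941 on the opposite strand.

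Krt19, the luminal type I keratin that lacks the usual tail domain, was measured at 2595, 2395, 2677 and 2422 normalized counts in 4T1-Sca1+ cells and at 2283, 2667, 2595 and 2593 in 4T1-Sca1- cells. The groups overlapped, with the lowest value of all in 4T1-Sca1- replicate 1. Its log2 fold change (ENSMUSG00000020911, chr11:100140810-100148665, minus strand) was 0.01 ± 0.05 (95% interval from -0.10 to 0.11), at an adjusted p of 0.931 by edgeR. With the GC correction the value was -0.15 and passed the test, with an adjusted p of 0.00133. Krt20, the type I keratin of intestinal and urothelial surface cells, had 4, 2, 3 and 6 counts in 4T1-Sca1+ libraries against 0, 3, 0 and 1. Scaled for depth, the summed counts differed by a ratio of 3.35, with an exact 95% interval from 1.07 to 13.9 that covers counting error only. Without a filter on low counts, Krt20 had an adjusted p of 0.0931 by edgeR, whereas limma on the deposited values called it (adjusted p of 0.0229).

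Among the basal keratins, Krt14 alone was abundant. This type I chain was measured at 571, 543, 524 and 561 normalized counts in 4T1-Sca1+ cells and at 593, 670, 675 and 660 in 4T1-Sca1- cells. The groups did not overlap, although 4T1-Sca1- replicate 1 lay close to the 4T1-Sca1+ libraries. Its log2 fold change (ENSMUSG00000045545, chr11:100203162-100207548, minus strand) was -0.23 ± 0.06 at an adjusted p of 0.00346 by edgeR, and -0.39 with the GC correction.

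Krt5, the type II partner with which KRT14 forms the basal filament, was close to absent. It had 0, 2, 1 and 0 counts in the 4T1-Sca1+ libraries and 0 in each 4T1-Sca1- library, so either group was at or under a floor of 3 counts per library and no fold is given. Krt5 overlaps Gm44323 on the opposite strand. Krt15, a type I basal keratin also known from hair follicle stem cells, had 3, 4, 5 and 3 counts against 3, 4, 3 and 1, a depth-scaled ratio of 1.22 with an exact interval from 0.522 to 2.93. Neither the direction nor the size of a difference in Krt15 was detectable at this depth.

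Krt17, a type I keratin of basal and wounded epithelia, was low but could be tested. It had 23.8, 30.6, 24.9 and 29.8 normalized counts in 4T1-Sca1+ cells and 34.4, 26.7, 27.8 and 35.4 in 4T1-Sca1- cells, and the ranges overlapped. Its log2 fold change (ENSMUSG00000035557, chr11:100256217-100261029, minus strand) was -0.18 ± 0.19, with a 95% interval from -0.54 to 0.19 and an adjusted p of 0.432 by edgeR. With the GC correction it was -0.39 (adjusted p of 0.0906), and without 4T1-Sca1- replicate 4 it was -0.11. Krt14, Krt16 and Krt17 are close in sequence, and how reads shared between them were counted is not given in the sources used here.

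Set per length, the order of the keratins was led by the luminal pair. Levels are CPM, read counts scaled to a common library size, per kilobase of the principal transcript. In 4T1-Sca1+ cells Krt18 had a level of 760 ± 35.7 (SD, n = 4), followed by Krt8 at 462 ± 18.6, Krt7 at 276 ± 12.6 and Krt19 at 106 ± 5.54. In 4T1-Sca1- cells the order was the same, with Krt18 at 584 ± 17.8, Krt8 at 371 ± 12.4, Krt7 at 318 ± 12.8 and Krt19 at 105 ± 7.06. Neighbours in this order lay further apart than their spread in either group. Krt80 followed at 30.2 ± 1.82 and 38.9 ± 1.53 in 4T1-Sca1+ and 4T1-Sca1- cells, then Krt14 at 21.4 ± 0.87 and 25.1 ± 1.47. Krt17 was at 1.16 ± 0.146 and 1.31 ± 0.189. The place of Krt7 rests on the length used, because its principal transcript of 4094 bases has a coding length of 1371 bases. Per kilobase of coding length, Krt7 was at 949 ± 38.3 in 4T1-Sca1- cells, above Krt18 at 661 ± 20.1, and at 825 ± 37.7 in 4T1-Sca1+ cells, where Krt18 at 860 ± 40.5 was within their spread.

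Krt13, a type I keratin of the oral and oesophageal lining, showed the largest change of any keratin tested. Beyond the list, 20 further keratins were counted and 3 of them were tested. Krt13 had 16, 21, 23 and 22 counts in 4T1-Sca1+ libraries against 3, 1, 4 and 3, so its level was low but the groups were well separated. Its log2 fold change was 2.70 ± 0.36 at an adjusted p of 5.5e-06 by edgeR. Krt10, the suprabasal keratin of epidermis, had a log2 fold change of 0.50 ± 0.19 with overlapping groups and an adjusted p of 0.0292. Its gene overlaps Gm11940 on the opposite strand. Its call was lost with DESeq2 (0.48), with limma on the deposited values (0.49) and without 4T1-Sca1+ replicate 4 (0.41), 4T1-Sca1- replicate 1 (0.48) or 4T1-Sca1- replicate 4 (0.36). Krt16, a keratin of wounded epidermis, changed by -0.49 ± 0.16 on the same scale at an adjusted p of 0.0134, a call that DESeq2 did not make.

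Of the 17 other keratins that were not tested, 12 had at most 3 counts in every library and the highest count was 18. Without the filter on low counts, in a fit of all 16341 genes where 23.6% were called higher, Krt23, Krt4 and Krt76 were called higher, and they are named after their values were seen. Krt23, a type I keratin, had 47 counts over the 4T1-Sca1+ libraries against 3, a depth-scaled ratio of 14 with an exact 95% interval from 4.5 to 70.2. Krt4, the type II partner of Krt13 in internal stratified epithelia, had 15 counts against 1, a ratio of 13.4 with an interval from 2.06 to 563. Krt76, a type II keratin of the palate, had 11 counts against 1, a ratio of 9.82 with an interval from 1.43 to 423. The intervals for Krt4 and Krt76 are wide because the 4T1-Sca1- total was a single count for either.

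Type II keratins lie in a stretch of chromosome 15 in which other genes were higher in 4T1-Sca1+ cells, so type and position were read separately. By type, 1 type I member (Krt18) was higher and 1 (Krt14) was lower of 4 tested, with a median log2 fold change of -0.08. Of 3 type II members tested, 1 (Krt8) was higher and 2 (Krt7 and Krt80) were lower, with a median of -0.20. Either type thus held a member in either direction, whereas the median over all tested genes was 0.01. By position, the members called higher, Krt8 and Krt18, are neighbours whose starts lie 23.7 kb apart, and Krt7 and Krt80 lie together 566.4 kb away at the other end of the same cluster. The type I genes of chromosome 11 held no member called higher by edgeR, although limma on the deposited values called Krt20 higher. Beyond the list, Krt13 (2.70) and Krt10 (0.50) of chromosome 11 were called higher and Krt16 (-0.49) was called lower.

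**Figure D2:**
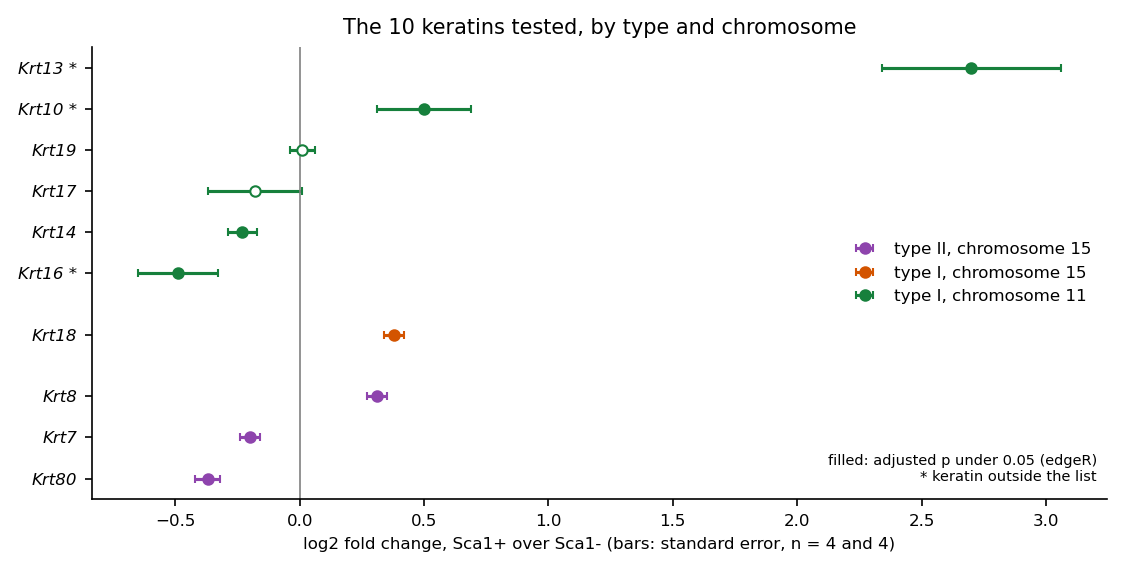
Log2 fold change (4T1-Sca1+ over 4T1-Sca1-, horizontal axis, bars for the standard error, 4 libraries a group) of the 10 keratins tested, coloured by type and chromosome. Krt8 and Krt18 sit at 0.31 and 0.38 on chromosome 15, Krt7 and Krt80 at -0.20 and -0.37 on the same chromosome, and Krt13, outside the list, at 2.70.

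Around the chromosome 15 cluster, 59 genes other than keratins were tested from 2 Mb before its first to 2 Mb after its last keratin gene. Over all genes tested, 31.3% were higher and 30.2% were lower. Of the 59 neighbours, 49 (83.1%) were higher and 2 (3.39%) were lower, with a median log2 fold change of 0.44. The region was chosen with earlier results of these data known, so this gives the local level and is not independent support. Krt8 and Krt18 ranked 41 and 33 from the top among the 63 tested genes of the window, keratins included, and their values of 0.31 and 0.38 were below the local median. Krt7 and Krt80 ranked 59 and 61, and the gene next to the cluster on their side, Atg101, an autophagy gene 56.5 kb away, had a log2 fold change of 0.22 ± 0.06, which was 0.045 and no longer called with the GC correction. On the other side, Eif4b, a translation initiation factor 41.7 kb beyond Krt18, had 0.10 ± 0.04, a call that was lost under DESeq2 size factors (0.09), under several other alternatives, and when any of 6 libraries was left out (0.077 to 0.10).

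The lower neighbours were Hnrnpa1, an RNA-binding splicing factor, with a log2 fold change of -0.62 ± 0.06, and Slc11a2, an iron transporter, with -0.27 ± 0.04. The highest were Pde1b, a cyclic nucleotide phosphodiesterase, with 4.15 ± 0.48, Cela1, a pancreatic-type elastase, with 3.19 ± 0.52, and Igfbp6, which binds insulin-like growth factors, with 2.83 ± 0.28. Pde1b and Cela1 were low, with mean normalized counts of 20.6 and 15.4 in 4T1-Sca1+ cells. Narrower and wider windows gave the same picture, with 29 higher and 1 lower of 36 genes within 1 Mb and 83 higher and 4 lower of 101 genes within 5 Mb. Over the whole of chromosome 15, 56.2% of 480 genes were higher and 14.4% were lower.

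Around the type I cluster of chromosome 11, 42 of 101 genes (41.6%) were higher and 21 (20.8%) were lower, beside 31.3% and 30.2% over all genes tested. The median was 0.10, which fell to 0 after the GC correction. Smarce1, a chromatin remodelling subunit 1.74 kb before the cluster, had a log2 fold change of 0.23 ± 0.05, and Eif1, a translation initiation factor gene just behind it, had -0.39 ± 0.05. The highest neighbours were Srcin1, Mpp3 and Wnk4, at 2.40, 1.45 and 1.30, and the lowest were Dusp3, Mrpl45 and Dnajc7, at -0.54, -0.54 and -0.45.

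**Figure D3:**
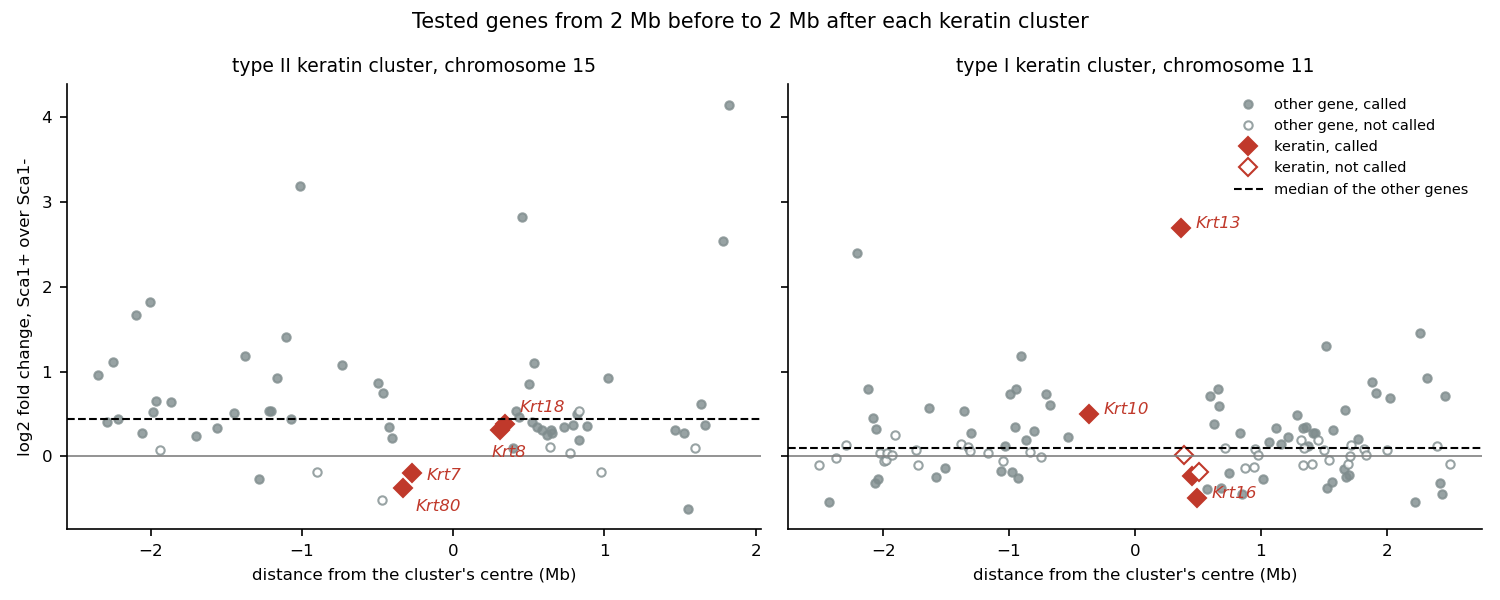
Log2 fold change (4T1-Sca1+ over 4T1-Sca1-, vertical axis) of every tested gene against its distance in Mb from the centre of each keratin cluster, with keratins as red diamonds, other genes as grey circles, open symbols for genes not called and a dashed line at the median of the other genes. On chromosome 15 the median is at 0.44 and Krt7 and Krt80 lie below 0, and on chromosome 11 the median is at 0.10.

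Ratios between keratins within a library do not depend on a factor that scales the whole library. They can change with the GC correction, which differs by gene. The 3 ratios were compared by an exact permutation test over the libraries (two-sided), adjusted over the 3, in which 4 against 4 libraries cannot give less than p = 0.0286. The log2 ratio of Krt8 to Krt18 counts, the partners of the luminal filament, was -0.28, -0.27, -0.28 and -0.26 in 4T1-Sca1+ libraries and -0.17, -0.18, -0.24 and -0.24 in 4T1-Sca1- libraries. It was lower in 4 of 4 4T1-Sca1+ libraries by 0.07 ± 0.02 (exact permutation p = 0.0286, adjusted p = 0.0429), a change from 0.866 to 0.828 counts of Krt8 per count of Krt18. The partners therefore moved nearly together, with Krt18 slightly ahead.

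The log2 ratio of Krt7 to Krt19, simple-epithelial keratins of either type, was 2.75, 2.78, 2.75 and 2.76 in 4T1-Sca1+ libraries and 3.06, 2.98, 2.91 and 2.92 in 4T1-Sca1- libraries. It was lower in 4 of 4 4T1-Sca1+ libraries by 0.21 ± 0.03 (exact permutation p = 0.0286, adjusted p = 0.0429). The ratio was not recomputed with the GC correction. That correction brought the log2 fold changes closer together, at -0.29 for Krt7 and -0.15 for Krt19 beside -0.20 and 0.01 without it. The log2 ratio of Krt5 to Krt14 differed by 1.05 ± 0.65 (exact permutation p = 0.343), but with Krt5 at no more than 2 counts this ratio is set by the added 0.5 count.

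The make-up of the keratin pool followed from these differences. Keratins together took 0.333% to 0.363% of all counts in 4T1-Sca1+ cells against 0.306% to 0.327%. Krt7 held 32.5% to 33.3% of the keratin counts in 4T1-Sca1+ libraries against 40.3% to 40.9%. Krt8 held 26.1% to 26.7% against 22.4% to 23.2%, and Krt18 held 31.4% to 32.1% against 25.8% to 26.5%. Krt7 and Krt18 thus had nearly equal counts in 4T1-Sca1+ cells, at 1.01 to 1.06 counts of Krt7 per count of Krt18, whereas the ratio was 1.52 to 1.59 in 4T1-Sca1- cells. Summed per kilobase of transcript, type II over type I levels came to 0.856 to 0.869 in 4T1-Sca1+ cells against 0.988 to 1.04. Per kilobase of coding length the same ratio was above 1 in either group, at 1.45 to 1.48 against 1.79 to 1.88, so which type exceeds the other rests on the length used. These shares are descriptions, and they rest on the abundant Krt7, Krt8 and Krt18, which made up 89.3% to 91.3% of the keratin counts.

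**Figure D4:**
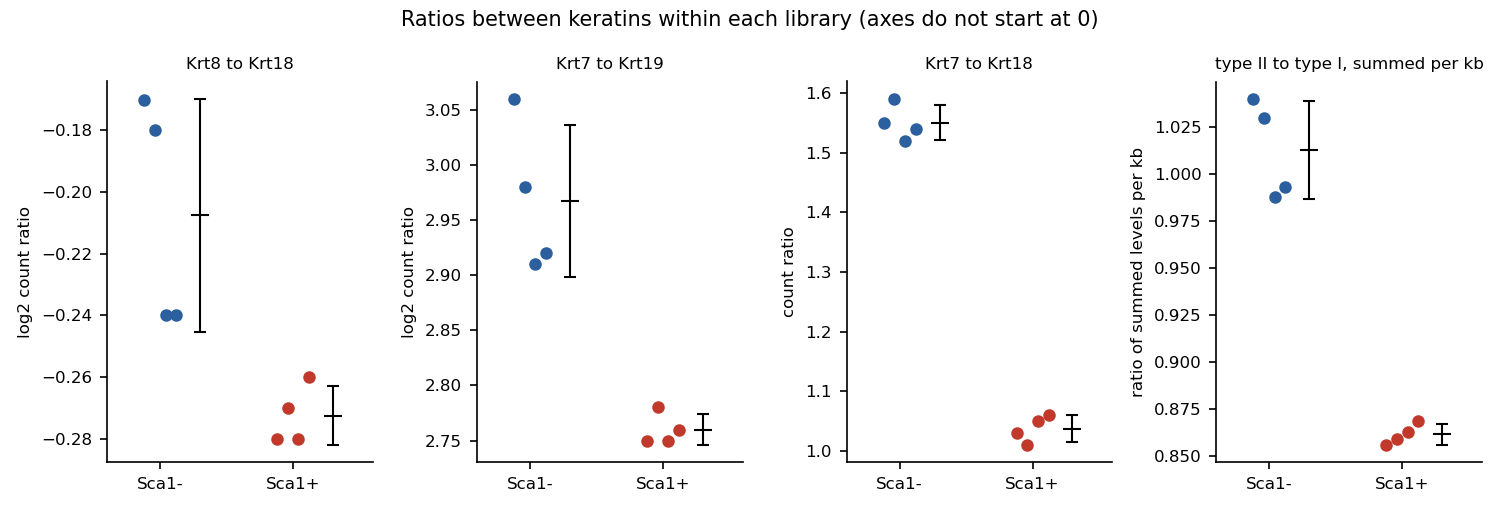
Ratios between keratins in each library (vertical axes, not from 0), shown as log2 count ratios of Krt8 to Krt18 and of Krt7 to Krt19, count ratio of Krt7 to Krt18, and type II over type I levels summed per kilobase of transcript, with mean and SD of 4 libraries. All 4 ratios are lower in every 4T1-Sca1+ library, with Krt7 to Krt18 at 1.01 to 1.06 against 1.52 to 1.59.

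The genes whose CPM followed Krt8 most closely over the 8 libraries were Capn5, a calpain protease (Pearson r = 0.993), Padi2, a peptidylarginine deiminase (0.992), and Krt18 (0.991). Those most like Krt18 were Cyth4, Capn5 and E130308A19Rik, each at 0.992, and those most like Krt14 were Pradc1 (0.98), Arfgap2 (0.978) and Sbf2 (0.977). The 8 libraries fall into the sorted groups, so r here mainly reads the difference between them and is given as a description.

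Keratin filaments are anchored at desmosomes, which join cells, and at hemidesmosomes, which join cells to the basement membrane. Among desmosomal and plakin genes, 5 of 13 tested were higher and 6 were lower, with a median log2 fold change of -0.17. Counts in this and the following lists stand beside 31.3% of all tested genes called higher and 30.2% called lower. Dsp, which encodes the desmoplakin that ties keratins to desmosomes, fell from a range of 3613 to 3867 normalized counts to one of 2140 to 2372, a log2 fold change of -0.71 ± 0.05. The plakophilin gene Pkp2 was lower by a similar amount (-0.70 ± 0.06). Plec encodes plectin, a linker of intermediate filaments to other cytoskeletal and junctional structures. It rose to 12154 to 15198 from 8137 to 9201 (0.65 ± 0.06, or 0.36 with the GC correction). The desmocollin gene Dsc2 rose (0.51 ± 0.12), and Jup, which encodes plakoglobin, rose (0.38 ± 0.07, or 0.21 with that correction). Plec lies on chromosome 15, where 56.2% of tested genes were higher and 14.4% were lower. Jup is one of the neighbours counted around the chromosome 11 cluster.

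Of 6 hemidesmosome genes tested, 3 were lower and 2 were higher, with a median log2 fold change of -0.54. Lama3 (938 to 1100 against 2426 to 2534 normalized counts, -1.27 ± 0.05) and Lamb3 (1565 to 1795 against 3312 to 3650, -1.02 ± 0.05) encode laminin chains of the epithelial basement membrane. Col17a1, a transmembrane collagen, was the other lower gene (-0.95 ± 0.15). The study had chosen these 3 genes for a signature on these same libraries, so their direction is not independent evidence. Cd151, a tetraspanin (0.36 ± 0.05), and Itga6, the integrin alpha 6 chain (0.22 ± 0.05), were higher.

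Other intermediate filament genes had 2 of 7 tested higher and 1 lower, with a median of 0.12. Vim, which encodes the mesenchymal filament protein vimentin, was measured at 27316 to 30553 normalized counts in 4T1-Sca1+ cells against 21415 to 22547 (0.43 ± 0.04), an increase beside those of Krt8 and Krt18. The lamin gene Lmnb1 was higher (0.12 ± 0.05), a call that was lost with DESeq2 (0.11), with the GC correction (0.094), in other fits and when any of 5 libraries was left out (0.10 to 0.13), and the nestin gene Nes was lower (-0.29 ± 0.04, or -0.44 with the GC correction). Among genes for keratin binding and turnover, 2 of 10 tested were higher and 4 were lower, with a median of -0.03. Sfn, which encodes 14-3-3 sigma and was in the study's signature, fell (-1.11 ± 0.05), and so did the small heat shock gene Hspb1 (-1.33 ± 0.36), which had only 0.997 to 14.6 normalized counts against 20 to 32. Fbf1, a keratin-binding protein gene, was higher (0.33 ± 0.05, or 0.17 with the GC correction), and the ubiquitin ligase gene Stub1 was higher (0.20 ± 0.05) but turned to -0.027 with the GC correction.

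Regulators of epithelial and keratin genes had 3 of 14 tested higher and 6 lower, with a median of -0.10. Grhl3, a Grainyhead factor of epithelial barriers, was low in either group but rose, with 12.8 to 21.9 normalized counts against 1.91 to 6.68 (2.00 ± 0.35). Cebpb, a bZIP factor, rose (1.13 ± 0.09, or 0.64 with the GC correction). The zinc finger factors Ovol1 (-0.58 ± 0.10) and Ovol2 (-0.53 ± 0.21), which hold epithelial identity, were lower. The Ovol2 call was lost with DESeq2 (-0.54), with library totals alone (-0.49), with limma on the deposited values (-0.53), and without 4T1-Sca1+ replicate 1 (-0.51) or 3 (-0.39) or 4T1-Sca1- replicate 1 (-0.37) or 4 (-0.49). Trp63, which encodes the basal master regulator p63, had 4 to 6 counts against 1 to 3 and was not tested.

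Of 13 luminal markers tested, 4 were higher and 4 were lower, with a median of 0.01, and 8 of 13 called is the share called over all genes, 61.5%. The higher ones were Muc1, an apical mucin in the study's signature (0.94 ± 0.19), Krt18, the luminal factor Gata3 (0.32 ± 0.07) and Krt8. Cdh1, which encodes E-cadherin, was lower at 3124 to 3469 normalized counts against 5183 to 5383 (-0.69 ± 0.04), as was the claudin gene Cldn4 (-0.62 ± 0.06), together with Foxa1 and Cldn3. Epcam had a log2 fold change of -0.03 ± 0.04 and an adjusted p of 0.552, although the GC correction brought it to -0.14 and past the test. Elf5, an alveolar luminal factor, had at most 4 counts.

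Of 9 basal markers tested, 3 were higher and 3 were lower, with a median of -0.18, again near the 61.5% called over all genes. Mylk, a myosin light chain kinase of contractile cells (1.33 ± 0.19), Vim and Itga6 were higher, and Egfr (-0.52 ± 0.10), the integrin gene Itgb1 (-0.28 ± 0.05, or -0.16 with the GC correction) and Krt14 were lower. Acta2, the smooth muscle actin of myoepithelial cells, had at most 3 counts in any library.

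**Figure D5:**
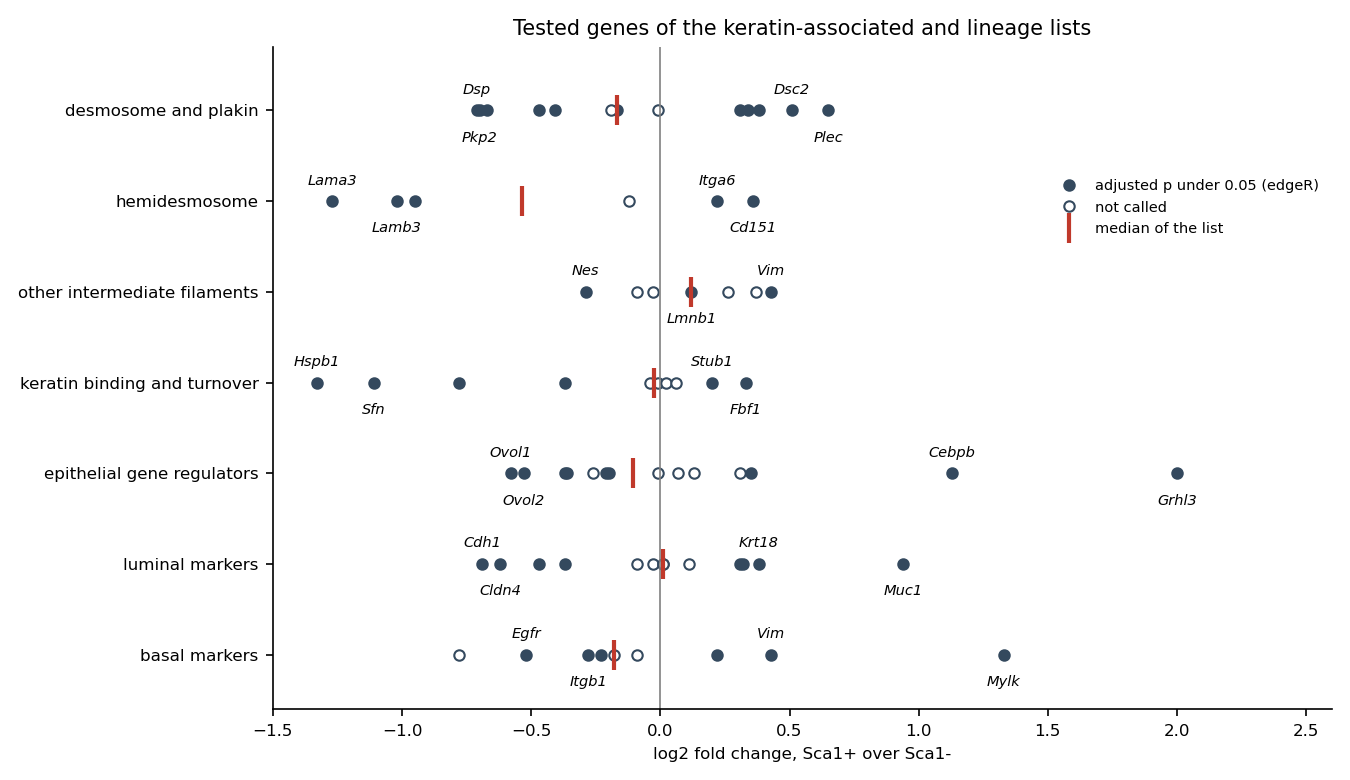
Log2 fold change (4T1-Sca1+ over 4T1-Sca1-, horizontal axis) of every tested gene of 7 lists, filled where called and open where not, with a red bar at the median of each list. The hemidesmosome list has its median at -0.54, and the luminal and basal lists hold genes on either side of 0.

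Some markers of other cell types differed between the fractions, beside 31.3% of all tested genes called higher and 30.2% called lower. Many were at low levels, but Pdgfra, Cd68 and Cd74 were not. The fibroblast marker Pdgfra had mean normalized counts of 560 (4T1-Sca1+) and 364 (4T1-Sca1-). The leukocyte markers Cd68 and Cd74 had means of 236 and 125 (4T1-Sca1+), and of 152 and 65.5 (4T1-Sca1-). All 4 leukocyte markers tested were higher in 4T1-Sca1+ cells (S100a8, 2.38 ± 0.27 and in the study's signature, Csf1r, 1.18 ± 0.20, Cd74 and Cd68), and the summed level of the list was 26.5 to 31.1 CPM against 14.8 to 17.3. Ptprc had 2 to 4 counts against 0 to 1, and Lyz2 was at 0 in all 4T1-Sca1+ libraries. Fibroblast markers summed to 42 to 44.5 CPM against 26 to 30.6, with Col1a1 (0.75 ± 0.19) and Pdgfra (0.63 ± 0.07) higher among 3 tested. Dcn, a defining fibroblast gene, had 6 to 15 counts against 1, and Pdgfrb had 3 to 14 against 0 to 1. The other fibroblast markers did not follow. Col1a2 had 3 to 7 counts against 2 to 8, and Fap had 0 to 3 against 2 to 4. Postn was tested and not called (0.05 ± 0.24). Endothelial markers summed to 2.24 to 2.69 CPM against 2.78 to 4.19, and Cdh5 had at most 3 counts. Tie1, the 1 gene tested, was lower (-0.60 ± 0.19, not called without 4T1-Sca1- replicate 4, -0.49). Pecam1, which was not tested, went the other way, with 4 to 7 counts against 0 to 2. Adipocyte markers stayed at 0.188 CPM or less, and suprabasal keratinocyte markers summed to 4.57 to 5.33 against 4.04 to 5.7. The part of these cell type markers in the keratin differences was not tested.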

How the data were processed

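RNA was sequenced from 4 4T1-Sca1+ and 4 4T1-Sca1- libraries. The submitters' processing notes list cutadapt 1.16, STAR 2.5.3a and the builds GRCm38 and mm10. The counting tool, the annotation and the use of strand are not given in the sources used here. The authors deposited read counts per Ensembl gene (16341 genes) and a table of normalized signal (15372 genes), which equalled the counts divided by DESeq2 size factors to a relative difference of at most 4.9e-15. Neither table held columns of other samples. Total counts ran from 13561804 to 16968215. Because PCR copies were not marked by molecular identifiers, reads need not be independent, and counting intervals and the floor of 3 counts per library cover counting error only.

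GENCODE mouse release M21 (GRCm38) gave symbols, positions, lengths and GC content and held 16202 of the Ensembl IDs and not 139. Counts were tested with edgeR 4.0.16 in R 4.3.3 (filterByExpr, 11717 genes kept, TMM, glmQLFit and glmQLFTest, two-sided, no covariate) with Benjamini-Hochberg adjustment over the genes kept. Common biological variation had a coefficient of 0.0541. Ratios within libraries used counts plus 0.5 and exact permutation tests in SciPy 1.17.1. Fits were tested on simulated data.

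The members and gene lists were chosen with earlier results of these data known. All members were named, with every other keratin tested, the 2 highest and the 2 lowest called genes of each list and a few defining genes, the genes next to each cluster and the 3 highest and lowest called neighbours, and the 3 genes most like Krt8, Krt18 and Krt14. The alternatives were other scalings (DESeq2 size factors, library totals, upper quartile, TMM without chromosome 15, GC-corrected offsets), no filter or a minimum of 10 counts per library, the tools DESeq2 1.42.0 and limma 3.58.1 (voom, and the deposited values on a log2 scale), replicate number as a block, stricter thresholds (adjusted p of 0.01, or a log2 change of 1 or more), other windows, a pseudocount of 1, and leaving out each library. Coding length in place of transcript length was chosen after seeing the data. An item withheld for evaluation was left out of the lists and is not reported here.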

Additional observations from a re-analysis of the deposited data

Results flagged for a closer look

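Within groups of 4 libraries, 30 sets of values were examined for a sample far from the others, and 2 were found where chance gives about 1.5 (1 in 20). The first was Krt80, at 1933 normalized counts in 4T1-Sca1- replicate 2 against 1774 to 1793 in the other 4T1-Sca1- libraries. The other was Krt8 in the same library, at 11677 normalized counts against 10841 to 10951. Without 4T1-Sca1- replicate 2, either gene kept its direction and its call.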

How the results depend on the processing

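Of the 10 keratins tested, Krt7, Krt8, Krt14, Krt18 and Krt80 kept their direction and call in each fit run, and only a threshold of 1 on the log2 scale left 0 members called, in either type. Krt19 had no stable sign, with -0.0018 under DESeq2 size factors, -0.15 under GC-corrected offsets, -0.0073 without the low-count filter, -0.0068 with DESeq2, -0.0061 with limma on the deposited values, and -0.053 to 0.029 with each library left out. The GC correction also turned Stub1 (-0.027) and the median of the chromosome 11 neighbours (-0.00), and library totals alone turned Epcam (0.013). The cause was not tested. Type I members called were 2 higher with limma on the deposited values, where Krt20 (log2 fold change of 1.33) passed, and 2 lower with the GC correction, where Krt19 did.

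Among other lists, the higher filament genes were 1 with the GC correction, with no filter, with DESeq2, with limma on the deposited values and at an adjusted p under 0.01, and 1 to 2 with each library left out. The lower ones were 3 with the GC correction and 1 to 2 with each library left out. Higher basal markers were 5 with limma on the deposited values. At a log2 change of 1 or more, the counts were 11 higher and 0 lower chromosome 15 neighbours, 4 and 0 on chromosome 11, 0 and 0 desmosomal, 0 and 2 hemidesmosome, 0 and 0 filament, 0 and 2 keratin-binding, 0 and 0 luminal, and 1 and 0 basal genes, with 0 lower regulators. The chromosome 15 counts were 29 and 1 in the 1 Mb window and 83 and 4 in the 5 Mb window.

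Deviations of libraries with the same replicate number correlated at -0.129 to 0.0796, which gave no sign of pairing by number. Noise within libraries can hide a pairing, so this does not settle whether the libraries were paired. Fitting the replicate block gave 3605 higher and 3452 lower genes. Krt8 had 0.31 and Krt7 -0.20, and among the genes named in the report the block ended the call of Eif4b alone (0.097). The Krt7 to Krt18 level ratio in 4T1-Sca1+ cells was 0.364 per kilobase of transcript and 0.959 per kilobase of coding length. With 3 libraries left in a group, exact permutation tests cannot pass 0.05, so the ratios without a library are given with no test (-0.08 to -0.05 for Krt8 to Krt18, -0.23 to -0.18 for Krt7 to Krt19). Depth limits Krt5, Krt15 and Krt20.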
